A study of Mus musculus with 36 samples.

Results

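The genes described here encode the proteins of the cytosolic ribosome, the particle that reads mRNA into protein in the cytoplasm. They were taken by gene symbol alone: every probe set naming a single gene whose symbol starts with Rpl (large subunit) or Rps (small subunit) and a digit, or is Rpsa, Rplp0, Rplp1 or Rplp2. Of 57 such genes, 6 that encode Rps6 kinases, 1 whose name marks it as a pseudogene and 1 that RefSeq lists as a pseudogene were dropped. That left 49 of the 18193 genes with a probe set of their own, 26 of the large and 23 of the small subunit, on 105 probe sets. Each gene is represented by the probe set with the highest mean over the 36 arrays. The symbols also bring in Rps19bp1, a binding protein of Rps19, and Rpl7l1, an Rpl7-like protein, neither of which is a structural protein of the mature cytosolic ribosome. Rplp1 had no probe set of its own.

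The study measured RNA on 36 expression arrays from the brains of 18 adult C57BL/6 mice heterozygous for the transgene Cnp – eGFP-L10a. This transgene puts green fluorescent protein on ribosomal protein L10a, the product of Rpl10a, under the regulatory sequences of Cnp, a gene of myelin-forming oligodendrocytes. Each brain gave a bound sample, the RNA pulled down with the tagged ribosomes, and an unbound sample, the RNA left in the supernatant, so both fractions and all groups carry the transgene and no group lacks it. Each fraction holds 6 mice that were asleep, 6 that were awake and 6 that were sleep-deprived. Sleeping mice, taken in the afternoon (3 to 5 pm), had slept for 75% or more of the 6 to 7 h before death. Waking mice, taken at night (3 to 5 am), had been awake for 70% or more of the same span. Sleep-deprived mice were awake for most of the night and were then kept awake with new objects for 4 h of the light period. Time of day and state thus cannot be told apart in the comparisons of waking with sleep and with sleep deprivation. The bound and unbound RNA were purified with different kits, so kit and fraction cannot be told apart.

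Ribosomal proteins are made in balanced amounts and built with ribosomal RNA into a large and a small subunit. Their mRNAs are among the most abundant in any cell, and most belong to the TOP mRNAs, which start with a cytosine followed by a run of pyrimidines and whose loading onto ribosomes is set by mTOR, the kinase that couples protein synthesis to nutrients and growth factors. Several family members have a close paralog, such as Rpl22 and Rpl22l1 or Rps27 and Rps27l, which are not always used in the same proportion in every tissue.

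On the log2 scale of the deposited signals, the mean of all probe sets of an array lay between 5.91 and 5.94 in the bound arrays and between 6.33 and 6.42 in the unbound arrays. The bound arrays held the RNA that the labels name: all 13 measured oligodendrocyte markers were higher in bound than in unbound RNA, by a median of 3.26 log2 units, and all 14 measured neuron markers were lower, by a median of 1.34 units. Of 12 astrocyte markers 11 were lower, as were all 10 tested microglia markers and 4 of 5 tested endothelial markers. Of the 49 genes, 44 passed the filter on low signal (22 of each subunit) and were tested. The other 5, Rpl12, Rpl37, Rps16, Rpl39l and Rpl3l, had mean log2 signals between 2.70 and 4.81 in both fractions and were not tested. Levels of different probe sets are not compared with each other, because probes differ in how strongly they bind. Of the 44 probe sets, 12 carry the suffix that marks probes shared with unrelated sequences, and ribosomal protein genes have many near-identical pseudogene copies, so part of a signal could come from such a copy.

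The start of each gene is shown first, since the pyrimidine run at that point is the feature that ribosomal protein mRNAs are known for. The RefSeq annotation (GRCm38.p6) gave 52 annotated starts for 44 of the 49 genes. A cytosine at the first transcribed base followed without interruption by pyrimidines, at least 5 in all, was found at 8 of the 52 starts (15.4%), against 2.51% of all 32851 annotated starts of the same table. All 8 are given here, 15 bases before the annotated start and 15 from it, 5′ to 3′ on the gene's own strand, with the longest run of pyrimidines that begins with a cytosine in capitals.
Rps6 (chr4:86857353-86857382, minus strand): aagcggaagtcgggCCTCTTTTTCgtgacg
Rpl38 (chr11:114668565-114668594, plus strand): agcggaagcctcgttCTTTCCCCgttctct
Rpl35 (chr2:39005117-39005146, minus strand): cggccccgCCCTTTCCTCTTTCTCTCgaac
Rplp2 (chr7:141447636-141447665, plus strand): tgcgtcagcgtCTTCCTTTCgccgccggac
Rps10 (chr17:27635230-27635259, minus strand): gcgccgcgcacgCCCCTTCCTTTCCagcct
Rps18 (chr17:33955651-33955680, minus strand): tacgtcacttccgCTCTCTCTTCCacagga
Rpl14 (chr9:120571502-120571531, plus strand): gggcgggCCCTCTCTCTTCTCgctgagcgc
Rps27 (chr3:90213634-90213663, minus strand): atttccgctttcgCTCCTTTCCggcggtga

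The same window is given for the other genes on which the results turn. They are the tagged gene, a pair of paralogs, the paralog of Rps27 and Rps19. Rps19 is the member with the second largest fall in bound RNA on the probe sets that represent the genes. The annotated start of a gene can lie a few bases from the one used most in a tissue, so a run that misses the first base in these windows says only that the letters are not at that base.
Rpl10a (chr17:28328456-28328485, plus strand): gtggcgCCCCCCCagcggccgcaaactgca
Rpl22 (chr4:152324421-152324450, plus strand): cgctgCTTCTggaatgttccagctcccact
Rpl22l1 (chr3:28805493-28805522, plus strand): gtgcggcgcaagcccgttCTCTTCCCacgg
Rps27l (chr9:66946071-66946100, plus strand): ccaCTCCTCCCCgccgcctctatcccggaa
Rps19 (chr7:24884577-24884606, plus strand): tccgaaatctcgcgagactcgacgcccgac

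Within the 300-base windows from 250 bases before to 50 after the start, CCGGAAG, the core of the sites of ETS-family factors, stood on either strand in 21 of the 52 (40.4%), against 8.86% of all windows. The TATA-box letters TATAAA stood in 11.5% of these windows and in 13.6% of all. Medians of genes with and without these letters lay close together in the comparison of fractions given next: the median bound minus unbound difference was -0.37 for the 19 tested genes with CCGGAAG and -0.35 for the 20 without it, and -0.37 for the 8 with a pyrimidine run at the start and -0.33 for the 31 without. These are counts of letters and not measured binding.

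As deposited, ribosomal protein mRNAs were mostly lower in bound than in unbound RNA. Their median lay close to that of all genes, but a larger share of them was called lower. By limma on the 18 within-animal differences, 35 of the 44 genes (79.5%) were lower in bound RNA and 5 (11.4%) were higher. The other 4 did not pass an adjusted p of 0.05. Over all 13924 genes tested 83.6% were called, 58.1% lower and 25.5% higher. The median bound minus unbound difference was -0.37 log2 units for these genes and -0.35 for all genes tested, and 39 of the 44 lay between the quartiles of all genes, -1.08 and 0.22. The direction of the whole family depends on scaling. With each array centred on its median, 33 genes were higher and 3 lower (median 0.33), while the median of all genes moved from -0.35 to 0.35. On that scale 85.4% of all genes tested were called, higher or lower. Centring shifts the difference of every gene alike. When all arrays were quantile-normalized together 6 genes rose and 31 fell (median -0.30, while the median of all genes moved to 0.08). Of all genes tested 82.4% were then called, higher or lower. In these bulk fractions a lower level cannot be told apart as fewer cells or less RNA per cell. In 17 of the 44 genes (38.6%) the highest of the 18 bound values lay below the lowest of the 18 unbound values. That held for 18.3% of all genes tested. In none of the 44 did all bound values lie above all unbound values, against 8.01% of all genes.

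**Figure D1:**
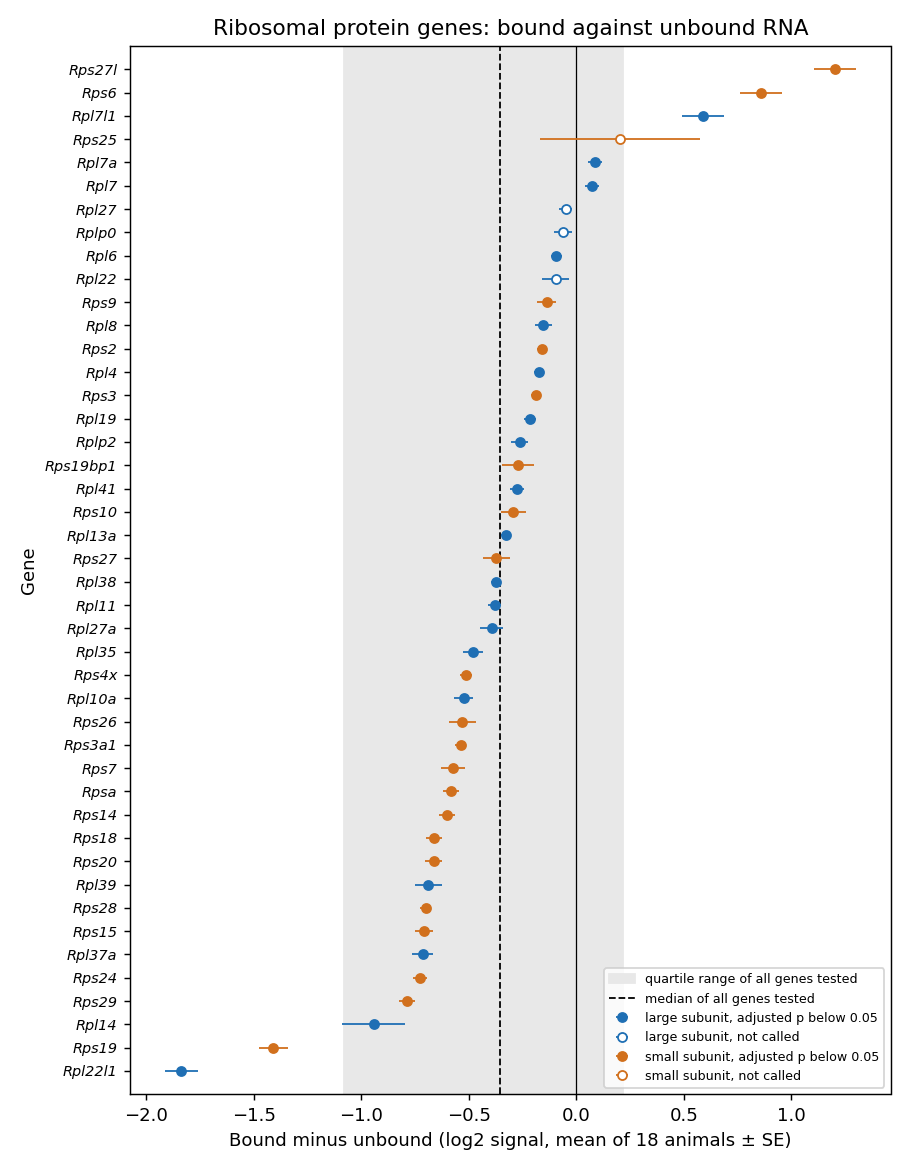
Bound minus unbound log2 signal of the 44 tested ribosomal protein genes (mean of 18 animals ± SE, deposited scale), coloured by subunit, with filled points for limma adjusted p below 0.05; the dashed line is the median of all genes tested (-0.35) and the grey band spans their quartiles. Rps27l and Rps6 lie farthest right and Rpl22l1 and Rps19 farthest left. With arrays centred on their median, 37 genes instead lie above 0 and 33 of them are called higher. On that scale 85.4% of all genes are called, higher or lower.

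Rpl22l1, which encodes the paralog of the large-subunit protein Rpl22, fell the most in bound RNA on the probe sets that represent the genes. Its log2 signal ran from 8.27 to 9.29 with a median of 8.82 over the 18 bound arrays, and from 10.07 to 10.93 with a median of 10.67 over the 18 unbound arrays. Every bound value was therefore below every unbound value, and the difference was -1.84 ± 0.08 (SE, 18 of 18 animals lower, adjusted p = 7.96e-15), about 3.57-fold. It was lower on every scale tried, from -1.89 to -1.13.

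Rps19, a small-subunit protein needed to mature the small-subunit RNA, came next. Its signal ran from 8.97 to 10.20 (median 9.45) in bound and from 10.71 to 11.08 (median 10.90) in unbound arrays, again without overlap. The difference was -1.41 ± 0.07 (SE, 18 of 18 animals, adjusted p = 8.2e-14) and stayed at -0.71 or below under all alternatives. These were the 2 members that fell by more than 1 log2 unit.

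The next largest falls on the representing probe sets were smaller and lost their call in part with the scale. Rpl14, a large-subunit protein, was lower by -0.94 ± 0.15 (SE, n = 18 animals, adjusted p = 5.57e-06), but its bound values ran widely, from 6.02 to 8.08, and overlapped the unbound values of 7.56 to 8.96. Rps29, a small zinc-binding protein of the small subunit, ran from 12.54 to 13.18 in bound and from 13.62 to 13.84 in unbound arrays (-0.79 ± 0.04, adjusted p = 6.1e-14). Rps24 (-0.73 ± 0.03, adjusted p = 3.55e-14) and Rpl37a (-0.71 ± 0.05, adjusted p = 2.47e-11) likewise had no bound value as high as the lowest unbound value. With arrays centred on their median, Rps29 was still called lower at -0.08, whereas Rpl14 at -0.24 (adjusted p = 0.136), Rps24 at -0.03 (adjusted p = 0.514) and Rpl37a at -0.01 (adjusted p = 0.844) were not.

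Rps27l, the paralog of the small-subunit protein Rps27 and a known target of p53, rose the most in bound RNA. Its signal ran from 9.85 to 11.05 (median 10.62) in bound and from 8.83 to 9.94 (median 9.34) in unbound arrays, so the ranges touched only at their ends. The difference was 1.20 ± 0.10 (SE, 18 of 18 animals higher, adjusted p = 4.56e-10), about 2.30-fold, and between 1.12 and 1.91 under all alternatives. Its other probe sets gave 1.24 and 1.42.

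Rps6, the small-subunit protein that the S6 kinases phosphorylate, was higher in bound RNA by 0.86 ± 0.10 (SE, 17 of 18 animals, adjusted p = 6.19e-08). Its signal ran from 8.79 to 9.73 in bound and from 7.67 to 9.22 in unbound arrays. It stayed higher and called under every alternative, down to 0.24 when it was averaged with its other, dimmer probe set. That probe set did not pass the filter on low signal and, as the mean of both shows, was lower in bound RNA. Rpl7l1 was higher by 0.59 ± 0.10 (16 of 18 animals, adjusted p = 1.17e-05) and also kept its call throughout. The remaining calls upward were slight: Rpl7a by 0.09 ± 0.03 (adjusted p = 0.0169) and Rpl7 by 0.07 ± 0.03 (adjusted p = 0.0355). Both were lost without the intensity trend (adjusted p = 0.0681 and 0.0947). Rpl7a lost its call under 3 alternatives in all (largest limma adjusted p = 0.0806). Rpl7 lost it under 12, among them 10 of the 18 fits that left out 1 animal.

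Rpl10a, the gene of the tagged protein, behaved like most of the family. Its signal ran from 11.06 to 11.85 (median 11.49) in bound and from 11.73 to 12.19 (median 11.99) in unbound arrays. It was lower in bound RNA in 18 of 18 animals, by -0.52 ± 0.04 (SE, adjusted p = 6.7e-10), but 0.18 higher with each array centred on its median. Its probe set was not shown to tell the transgene's mRNA from the mouse gene's own.

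Of the proteins of the ribosomal stalk, which recruits elongation factors, Rplp2 was called and Rplp0 was not; the difference between them was not tested. Rplp0, the base of the stalk, stood at -0.06 ± 0.04 (9 of 18 animals lower, adjusted p = 0.184), and its bound values of 10.67 to 11.44 enclosed the unbound values of 10.86 to 11.38. Rplp2 was lower by -0.26 ± 0.04 (17 of 18 animals, adjusted p = 4.04e-06). Rpsa, a small-subunit protein that also serves as a laminin receptor, was lower by -0.58 ± 0.04 (18 of 18 animals, adjusted p = 8.57e-12), with bound values of 12.49 to 12.96 below all unbound values of 13.08 to 13.51. Centring arrays on their median turned these differences to 0.64, 0.44 and 0.12.

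The probe sets that represent paralog pairs moved apart between the fractions. This holds on any scale that shifts a whole array, because both genes were measured on the same arrays. Rpl22 itself was not called (-0.09 ± 0.06, 13 of 18 animals lower, adjusted p = 0.167), and a further probe set of it was higher by 0.32. In each animal the bound minus unbound difference of Rpl22l1 was set against that of Rpl22: it lay below it in 18 of 18 animals, by -1.74 ± 0.35 (SD, range -2.34 to -1.26). Rps27l lay above Rps27 by 1.57 ± 0.65 (SD, 18 of 18 animals), where Rps27 itself stood at -0.37 ± 0.06 (SE, 14 of 18 animals lower, adjusted p = 1.98e-05), or at 0.33 with centred and 0.32 with quantile-normalized arrays, on a dim probe set. Rpl7l1 lay above Rpl7 by 0.51 ± 0.43 (SD, 16 of 18 animals). Two-sided permutation tests flipped the sign of each animal's value (100000 draws, smallest possible p 1e-05). Adjusted over these 3 pairs, these permutation tests gave p = 3e-05, 3e-05 and 0.00018. When 1 animal was left out or the arrays were quantile-normalized, the differences were 0.46 to 0.71 for the last pair. They were 1.07 to 1.64 for Rps27l and -1.77 to -1.61 for Rpl22l1. Each pair compares different probe sets, and probe sets of the same gene can differ too. For bound minus unbound, those of Rps20 ran from -2.96 to -0.66 and those of Rpsa from -1.84 to -0.58. The tests therefore cannot tell a difference between paralogs from a difference between probe sets.

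**Figure D2:**
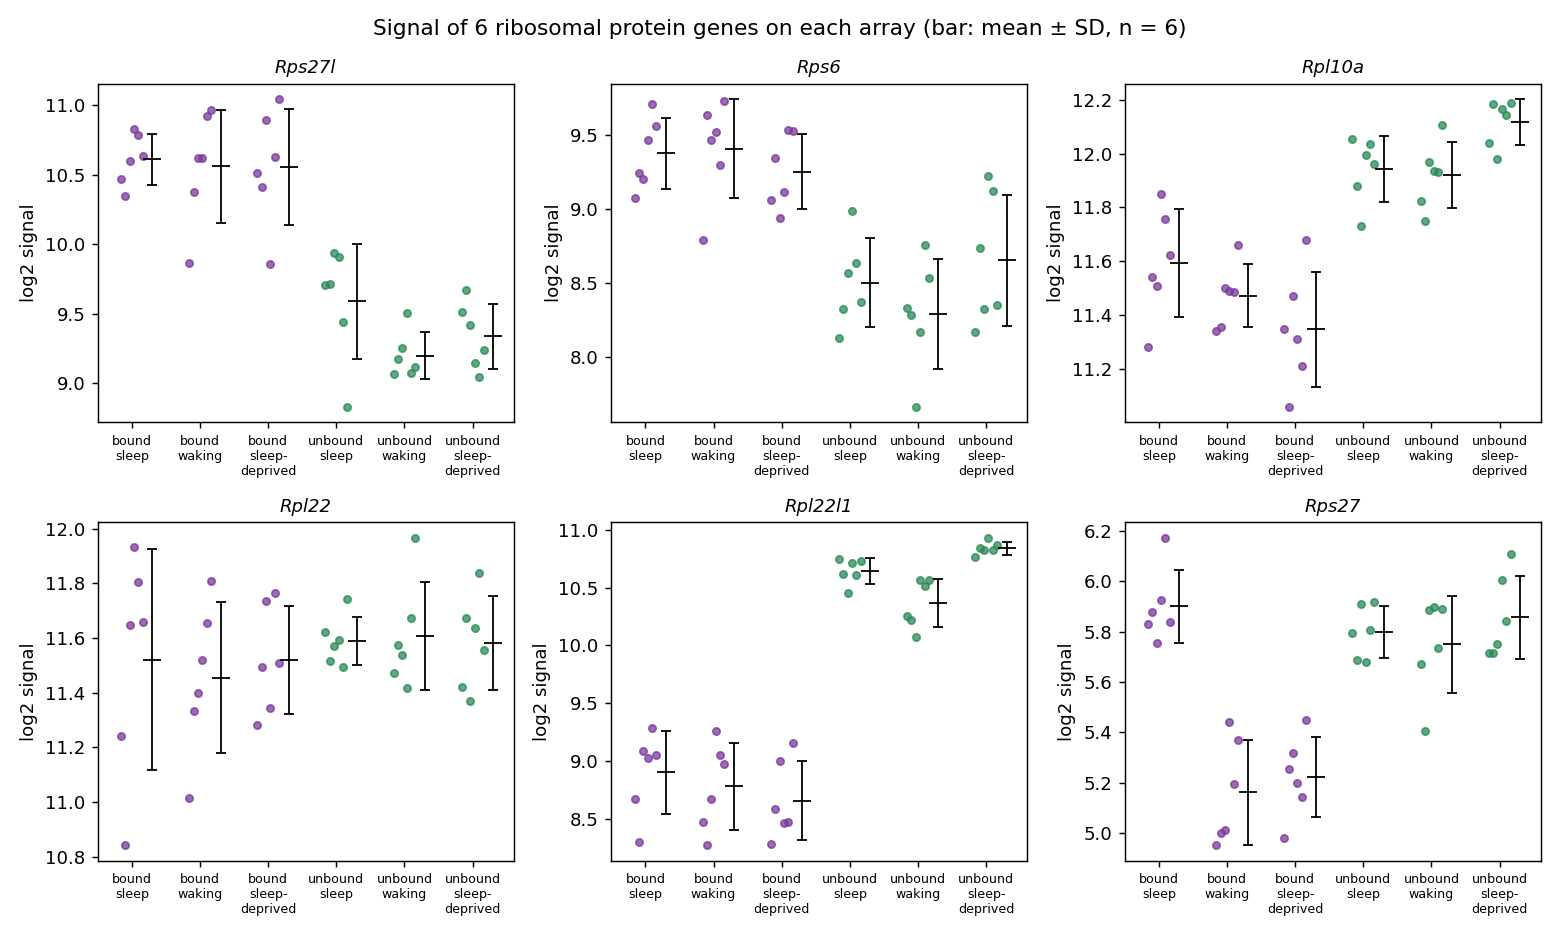
Log2 signal (deposited scale) of Rps27l, Rps6, Rpl10a, Rpl22, Rpl22l1 and Rps27 on each of the 36 arrays, by fraction and state, with the group mean ± SD (n = 6) as a bar beside the points. Rpl22l1 is lower on all bound than on all unbound arrays while Rpl22 overlaps, and Rps27 is lower in waking and sleep-deprived than in sleeping bound samples; Rpl10a and Rps27 turn to higher in bound RNA when arrays are centred on their median.

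Small-subunit genes stood lower in bound RNA than large-subunit genes. Of 22 small-subunit genes 19 were lower and 2 higher (median -0.53), and of 22 large-subunit genes 16 were lower and 3 higher (median -0.27). Over all genes tested 58.1% were lower and 25.5% higher (median -0.35). The groups follow the symbols, so the small-subunit group holds Rps19bp1 and the large-subunit group holds Rpl7l1, which is among the 3 called higher. The small-subunit median lay below the large-subunit median in 18 of 18 animals, by 0.08 to 0.35 log2 units and by -0.25 ± 0.07 (SD) on average. This gap does not depend on shifts of a whole array, but it compares different probe sets and has no test. Rps19 and Rps27l, the extremes of the small subunit, show how wide each group is.

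Other probe sets of the family were compared in the same way. Of the 22 genes with several tested probe sets, 19 had the same sign on all of them and none had opposite calls. A further 110 probe sets name a ribosomal protein gene together with another gene and were left out; of the 100 that passed the filter, 96 were lower and 1 was higher in bound RNA, with a median of -0.58. Over all 28768 probe sets tested, 59.4% were lower and 23.8% higher, with a median of -0.40.

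Related genes were divided as follows in the deposited values. Of 76 genes of mitochondrial ribosomal proteins, which serve the separate ribosome of mitochondria, 31 were lower and 20 higher (median -0.11), against 58.1% lower and 25.5% higher of all genes tested (median -0.35). Of 20 tested genes of translation factors and other TOP mRNAs, 13 were lower and 5 higher (median -0.18), against the same shares of all genes. Within that list, Btf3, a subunit of the complex that binds nascent chains, rose by 0.93 ± 0.04 (SE, adjusted p = 3.01e-15) and Eef1d, a subunit of the elongation factor 1 exchange complex, by 0.72 ± 0.03 (adjusted p = 8.71e-15), whereas Nap1l1, a histone chaperone, fell by -0.63 ± 0.03 (adjusted p = 8.48e-14).

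In bound RNA, the comparisons of states called 1, 2 and 0 ribosomal protein genes. From sleep to waking 1 of the 44 genes was called (2.27%), against 9.47% of all genes tested, and the median difference was -0.01 for the family and for all genes. From sleep to sleep deprivation 2 were called (4.55%), against 14.4% of all genes, with medians of -0.01 for both. From waking to sleep deprivation limma called 0, against 5.01% of all genes. At an unadjusted p under 0.05 that last comparison had 1 gene, Rps2 (-0.11 ± 0.04, adjusted p = 0.142), which passed after quantile normalization over all arrays at -0.16 (adjusted p = 0.0279). With the mean of all probe sets of a gene, 5 genes of the family were called in waking against sleep (11.4%) and 7 in sleep deprivation against sleep (15.9%), against 11.4% and 16.7% of all genes under that setting.

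The gene called in both comparisons with sleep, which share the same 6 sleep arrays, was Rps27, a zinc-finger protein of the small subunit. Its bound signal ran from 5.75 to 6.17 (median 5.86) in sleep, from 4.95 to 5.44 (median 5.10) in waking and from 4.98 to 5.45 (median 5.23) in sleep deprivation. No waking or sleep-deprived value reached the lowest sleep value. It was lower by -0.74 ± 0.13 (SE, n = 6 a group, adjusted p = 0.00122) in waking and by -0.68 ± 0.13 (adjusted p = 0.0013) in sleep deprivation. In unbound RNA the medians were 5.80, 5.81 and 5.80, with no call (adjusted p = 0.839 and 0.828). The call held under each alternative that kept the gene, but the probe set is dim: the medians of all probe sets on bound arrays lay between 5.26 and 5.37, and a filter at the 60th percentile removed it. The oligodendrocyte markers had means of 12.49 in bound sleep, 12.38 in bound waking and 12.42 in bound sleep-deprived samples. Of the 13 markers 5 were called in bound waking against sleep, with differences from -0.77 to 0.21, and 6 in bound sleep deprivation against sleep, with differences from -0.88 to 0.41. Their part in the result was not tested.

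Rpl6, a large-subunit protein, was the other call in bound RNA. It ran from 12.13 to 12.35 in sleep and from 12.32 to 12.55 in sleep deprivation, which overlap slightly, and was higher by 0.20 ± 0.06 (SE, adjusted p = 0.0202). Waking was close behind at 12.23 to 12.50, without a call (0.18 ± 0.06, adjusted p = 0.0505). The call was lost after quantile normalization (adjusted p = 0.081).

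In unbound RNA, which comes from all other cells of the sample as well as from what was not pulled down, the 3 comparisons of states called 5, 1 and 17 genes of the family, and whether these counts differ from those in bound RNA was not tested. From sleep to waking 5 of 44 were lower (11.4%) and 0 higher, against 5.72% lower and 1.49% higher of all genes (7.21% in all), and the median difference was -0.08 for the family and -0.09 for all genes. Rps14, a small-subunit protein, ran from 12.79 to 12.93 in sleep and from 12.51 to 12.72 in waking, without overlap (-0.24 ± 0.04, SE, adjusted p = 0.000556). Rps3a1 fell by -0.16 ± 0.03 (adjusted p = 0.00379), also without overlap. Rpl13a (-0.11 ± 0.02, adjusted p = 0.00812), Rpl38 (-0.10 ± 0.02, adjusted p = 0.0123) and Rpl22l1 (-0.28 ± 0.08, adjusted p = 0.0492) overlapped between the groups, and the call of Rpl22l1 was lost in 14 of the 18 fits that left out 1 animal. From these 5 only Rps14 was still called with arrays centred on their median, where Rpl38 stood at 0.0025.

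From sleep to sleep deprivation 1 gene was called in unbound RNA, Rpl7 (0.16 ± 0.05, SE, adjusted p = 0.0346), against 7.82% of all genes. It was not called after quantile normalization (adjusted p = 0.0918) nor without sleep replicate 1, 2, 3, 4 or 6 or sleep-deprived replicate 6, 7, 9 or 10. Leaving out sleep replicate 1, 3, 4 or 6, or any of those sleep-deprived replicates, left 0 genes called.

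From waking to sleep deprivation 16 of 44 genes were higher in unbound RNA (36.4%) and 1 was lower, against 8.45% higher and 1.49% lower of all genes (9.94% in all). The median difference was 0.14 for the family and 0.11 for all genes tested, and 41 of 44 values were above 0. Rpl22l1 rose most: it ran from 10.07 to 10.57 in waking and from 10.76 to 10.93 in sleep deprivation, without overlap (0.48 ± 0.08, SE, adjusted p = 0.00221), and lay between in sleep, at 10.45 to 10.75. Rps14 rose by 0.27 ± 0.04 (adjusted p = 0.000219) and Rps3a1 by 0.18 ± 0.03 (adjusted p = 0.00171), both without overlap. Rps20, at 0.15 ± 0.04 (adjusted p = 0.0111), and Rpl19, at 0.17 ± 0.04 (adjusted p = 0.0111), followed. The comparison shares its waking arrays with that of sleep and waking, where Rps14 and Rps3a1 were called lower in waking. Rpl39 was the gene called lower (-0.40 ± 0.13, adjusted p = 0.0488), on a dim probe set with sleep-deprived values of 5.85 to 6.07, and its call was lost in 14 of the 18 fits that left out 1 animal.

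This count changed with the scale of the arrays. After quantile normalization, or with arrays centred on their median, 2 genes were higher and 1 lower, and the median of the family was 0.03 or 0.05. The share of all genes called was 4.17% when each fraction was quantile-normalized and 4.04% when arrays were centred, and the medians of all genes were -0.0029 and 0.014. Rps14 and Rpl22l1 kept their calls under every alternative. The mean of all probe sets was 6.34 in unbound waking arrays against 6.40 in unbound sleep and 6.41 in unbound sleep-deprived arrays. The Gapdh control's 3′ minus 5′ signal, which grows as RNA shortens, was 1.25 ± 0.12 (SD, n = 6) in unbound waking, 1.05 ± 0.02 in unbound sleep and 1.03 ± 0.04 in unbound sleep-deprived samples. The same measure of the beta-actin control was -0.23 ± 0.02 in unbound waking, -0.20 ± 0.05 in unbound sleep and -0.23 ± 0.05 in unbound sleep-deprived samples. Among cell type markers in this comparison, all 13 of oligodendrocytes lay above 0 (median 0.24) and 4 of them were called higher. Of 14 neuron markers 4 were called higher (median 0.14), of 12 astrocyte markers 1 (median 0.10) and of 10 microglia markers 0 (median 0.22). The part of the array means, the Gapdh control or these markers in the result was not tested. The 3 animals that Xist and Y-linked genes set apart from the others were waking 3, waking 5 and sleep-deprived 11, and without them 8 genes were called. Leaving out waking replicate 1 or 2 or sleep-deprived replicate 7 or 11 gave 10, 11, 9 and 10 calls in all. The shares of all genes called with these animals left out are not given here, so these counts cannot be read as results about the family.

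**Figure D3:**
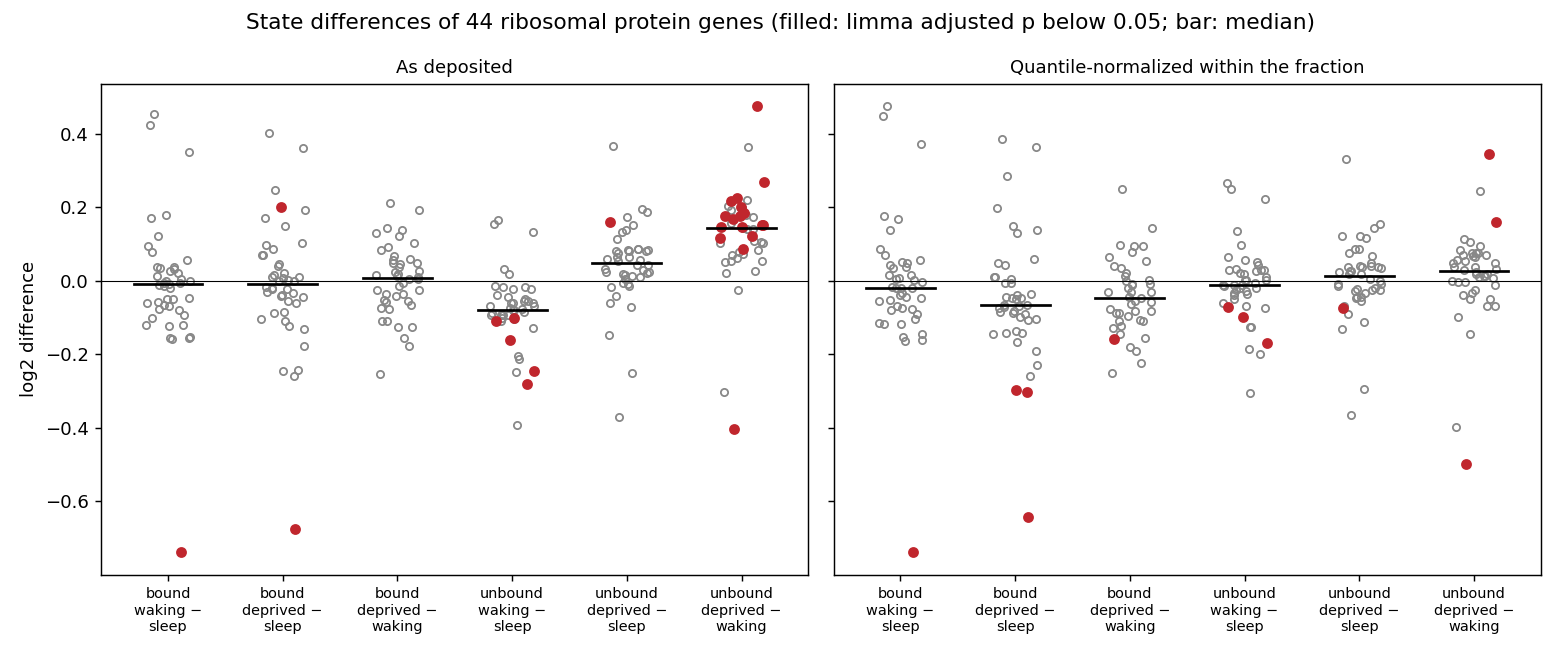
Log2 differences between states of the 44 tested ribosomal protein genes in bound and unbound RNA, as deposited (left) and after quantile normalization within the fraction (right), with filled points for limma adjusted p below 0.05 and a bar at the median. The 16 genes called higher in unbound sleep-deprived against waking samples on the left become 2 on the right, while the fall of Rps27 in bound waking and bound sleep-deprived samples stays.

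Whether a difference between states was unequal in bound and unbound RNA was tested on each animal's bound minus unbound difference. From sleep to waking 2 of 44 genes were called, against 5.34% of all genes, from sleep to sleep deprivation 4, against 6.24%, and from waking to sleep deprivation 2, against 4.27%. For Rpl10a the difference ran from -0.77 to -0.14 (median -0.31) in sleep, from -0.49 to -0.39 (median -0.45) in waking and from -1.12 to -0.51 (median -0.77) in sleep deprivation. The bound minus unbound difference was thus lower in sleep deprivation than in sleep, by -0.42 ± 0.11 (SE, limma adjusted p = 0.0234). No state difference of Rpl10a was called in either fraction alone. The call of -0.42 was lost in 4 of the 18 fits that left out 1 animal (sleep 3 or 4, sleep-deprived 7 or 10). Whether the fractions came closer or moved apart depends on the scale. Centring arrays on their median turned the difference of Rpl10a over all animals from -0.52 to 0.18.

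Rplp0 showed the same direction, at -0.34 ± 0.10 (adjusted p = 0.0482), with a difference of -0.54 to -0.13 in sleep deprivation and -0.23 to 0.26 in sleep, and lost the call in 14 of the 18 fits that left out 1 animal. For Rps27 the difference was -0.16 to 0.36 in sleep, -0.87 to -0.40 in waking and -0.81 to -0.43 in sleep deprivation, so that sleep stood alone (-0.69 ± 0.16, adjusted p = 0.0142, and -0.73 ± 0.16, adjusted p = 0.00771). Without the 3 animals that Xist and Y-linked genes set apart the first of these had an adjusted p of 0.0778. For Rpl39, also dim, the difference was higher in sleep deprivation, at -0.38 to -0.15, than in sleep, at -1.16 to -0.59 (0.62 ± 0.15, adjusted p = 0.0197). It was also higher than in waking (0.61 ± 0.15, adjusted p = 0.0279). Rpl6 in waking against sleep (0.25 ± 0.06, adjusted p = 0.025) and Rpl19 in sleep deprivation against waking (-0.24 ± 0.07, adjusted p = 0.0477) were not called after quantile normalization (adjusted p = 0.111 and 0.165).

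Ribosomal protein genes rose and fell together from one bound array to the next. After each group's mean was taken away, the mean correlation over all pairs of the 44 genes was 0.53 across the 18 bound arrays and 0.19 across the 18 unbound arrays. The same value was 0.23 and 0.04 for the 76 mitochondrial ribosomal protein genes and 0.0020 and 0.0022 for all genes tested. For the 1359 brightest other genes it was 0.02 and 0.03. The value in bound RNA was 0.47 to 0.57 when 1 array was left out, 0.53 after quantile normalization and 0.52 without the 12 probe sets marked as shared with unrelated sequences. Within groups it was 0.49 in bound sleep, 0.70 in bound waking and 0.36 in bound sleep-deprived samples. These are descriptions across arrays that share a fraction, without a test.

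The spread of the family's median shows the same. Over the bound arrays it ran from 11.89 to 12.31 in sleep, from 11.81 to 12.26 in waking and from 11.92 to 12.20 in sleep deprivation, whereas unbound arrays ran from 12.45 to 12.50, from 12.32 to 12.45 and from 12.41 to 12.56. Bound groups thus overlapped almost wholly, with SDs of 0.18, 0.20 and 0.11 against 0.02, 0.05 and 0.05 in unbound groups. The lowest 4 of the 18 bound arrays were replicates 1 and 2 of both waking and sleep, at 11.81 to 11.90. The labels do not say whether a replicate number marks a shared day or batch. The oligodendrocyte marker mean was 12.49 on the lowest and 12.50 on the highest bound sleep array, 12.47 and 12.43 on those of bound waking, and 12.46 and 12.47 on those of bound sleep deprivation. The neuron marker mean was 10.96 and 10.60 in sleep, 10.78 and 10.77 in waking and 10.77 and 10.49 in sleep deprivation. The astrocyte marker mean was 8.40 and 8.22 in sleep, 7.99 and 8.64 in waking and 8.30 and 8.16 in sleep deprivation. The part of these markers in the spread was not tested.

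**Figure D4:**
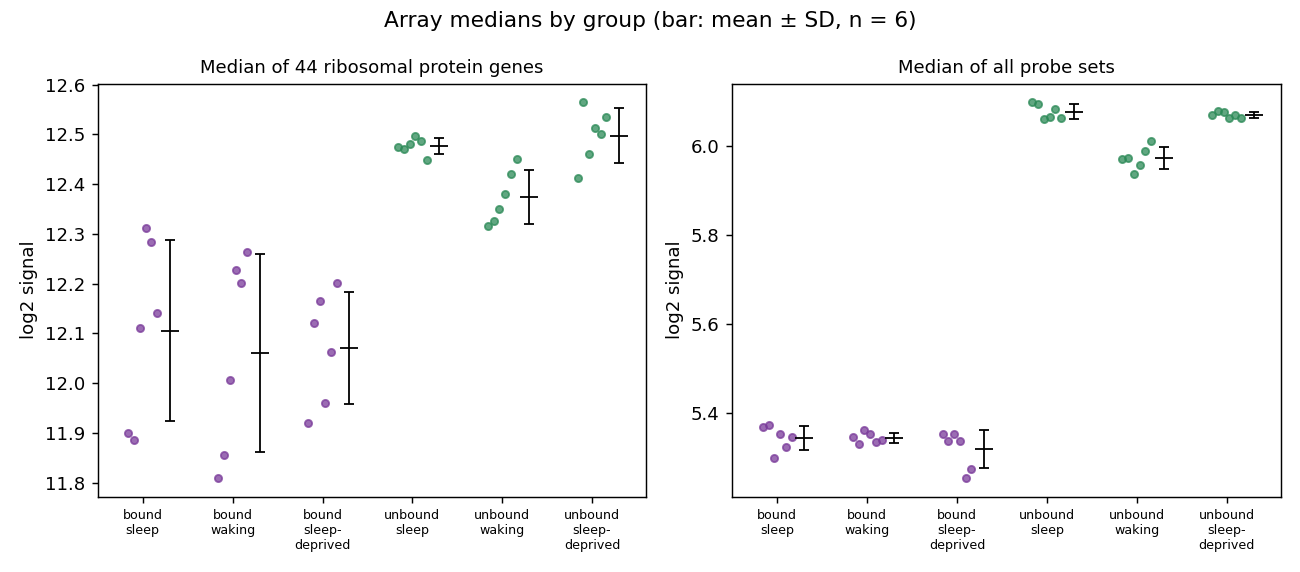
Median log2 signal of the 44 tested ribosomal protein genes (left) and of all probe sets (right) on each array, by fraction and state, with the group mean ± SD (n = 6) as a bar. The bound arrays spread over 11.81 to 12.31 for the family while their median of all probe sets stays near 5.3, and the unbound arrays lie closer together.

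Single genes differed in how far they followed the family in bound RNA. Rpl37a, with a correlation of 0.97 with the mean of the other members over 18 arrays, and Rpl11, a large-subunit protein that also binds the p53 regulator Mdm2, at 0.96, followed it most closely. Rpl7l1 ran against it at -0.32, and Rpl14 (0.09) and Rpl4 (0.19) hardly followed. Rpl11, Rpl37a and Rpl4 are named here for these values.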

How the data were processed

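Log2 signals of 45101 probe sets on 36 arrays were used as the authors deposited them. They were made by RMA (background correction, quantile normalization and probe summary; version not given in the sources used here) per the submitters' processing notes. The arrays of the bound fraction are lower as a whole than those of the unbound fraction, so a single quantile step over all 36 arrays is not what the values show, and differences between fractions carry that offset. How many arrays limits the precision: 6 animals a group, of separate animals per the labels.

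Probe sets were named from the platform annotation: 34945 had 1 gene symbol, 932 several and 9160 none. Each gene was represented by its brightest probe set, and 13924 of 18193 genes passed the filter (in bound or unbound RNA, a mean that reached the 40th percentile over probe sets). limma 3.58.1 (lmFit, eBayes with an intensity trend, Benjamini-Hochberg over all 13924 genes, threshold 0.05) in R 4.3.3 was run on the 18 within-animal differences for fractions and interactions, and on group means within a fraction for states; it was tested on simulated data. The pairing comes from the shared animal, since each brain gave both samples. Deviations of an animal's 2 arrays correlated at -0.0032 to 0.085 (mean 0.046), against a mean of -0.0026 for arrays of different animals. Of 18 arrays, 8 correlated best with their own partner. Sleep and waking arrays of different animals with the same replicate number correlated over a like range (-0.00095 to 0.087 in bound, -0.0050 to 0.10 in unbound RNA). The correlations therefore do not by themselves show the pairing. Python 3.11.15 and pandas 2.3.3 made the summaries.

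Named genes were Rpl10a, the called members by size or adjusted p (up to 6 in bound against unbound, up to 5 per direction between states), the stalk genes and Rpsa, the measured paralog pairs, and the first by adjusted p of related lists. The members and lists were chosen with earlier results of these data known. Alternatives were other scalings, filters, probe set rules, blocks and samples left out. Those on the correlation and the paralog pairs were chosen after seeing the data. Promoter sequences are RefSeq's (GRCm38.p6).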

Additional observations from a re-analysis of the deposited data

Results flagged for a closer look

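In 10 of 168 groups of 6 values checked, 1 array lay far from the other 5, a gap that chance gives in about 1 in 20 groups. The low values were Rpl7 in bound waking replicate 2 (11.46), Rpl6 (12.23) and Rps20 (11.38) in bound waking replicate 1, Rps3a1 in bound sleep-deprived replicate 6 (12.42) and in unbound waking replicate 3 (12.85), Rps20 in unbound sleep replicate 3 (12.34), Rpl39 in unbound sleep-deprived replicate 6 (5.85) and Rplp0 in unbound waking replicate 3 (10.86). The high values were Rps2 in unbound sleep replicate 5 (12.59) and Rpsa in bound sleep-deprived replicate 10 (12.92).

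State differences that were unequal in bound and unbound RNA by limma's interaction test (bound minus unbound difference, adjusted p below 0.05 over all genes) were found for 6 genes. They were Rps27 (-0.69) and Rpl6 (0.25) in waking against sleep (4.55% of the members, 5.34% of all genes). In sleep deprivation against sleep they were Rps27 (-0.73), Rpl10a (-0.42), Rplp0 (-0.34) and Rpl39 (0.62) (9.09% against 6.24%). In sleep deprivation against waking they were Rpl39 (0.61) and Rpl19 (-0.24) (4.55% against 4.27%). Of the 18 fits that left out 1 animal, Rplp0 lost its call in 14 and Rpl19 in 11. Rpl6, Rpl10a and, against waking, Rpl39 each lost it in 4.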

How the results depend on the processing

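With each array centred on its median, 33 members were higher and 3 lower in bound RNA (median 0.33), and Rpl10a (0.18), Rplp0 (0.64), Rplp2 (0.44), Rpsa (0.12), Rpl22 (0.61), Rps27 (0.33), Rpl39 (0.015) and Rps4x (0.19) turned to higher, as did Rps27 (0.32) under quantile normalization over all arrays. In unbound waking against sleep Rpl38 turned to 0.0025 with centring and Rpl13a to 0.030 with the mean of all probe sets. Members called higher in bound RNA were 3 without the intensity trend and 3 without the 3 animals that Xist and Y-linked genes set apart. For bound waking against sleep, 5 members were called with the mean of all probe sets, 2 with all probe sets as features, 4 without a filter, 0 with the filter at the 60th percentile and 3 with the animal as a random block. For bound sleep deprivation against sleep the same settings gave 7 (mean), 1 (60th percentile) and 4 (random block), and 1 without the trend. Bound sleep deprivation against waking gave 1 under both quantile normalizations and 1 without a filter. Unbound waking against sleep gave 3 under both quantile normalizations, 1 with centring, 1 without the trend and 1 with the random block. Unbound sleep deprivation against sleep gave 2 without a filter and 0 at the 60th percentile. Unbound sleep deprivation against waking gave 3 under both quantile normalizations, 3 with centring, 3 without the trend, 8 without the 3 animals and 6 with the random block. The interaction of waking and sleep gave 1 under quantile normalization, centring, the 60th percentile or no trend, 6 with the mean of probe sets, 4 without a filter and 0 without the 3 animals. That of sleep deprivation and sleep gave 1 at the 60th percentile and 2 without the trend. That of sleep deprivation and waking gave 1 under quantile normalization, centring or no trend, 7 without a filter, 0 at the 60th percentile and 0 without the 3 animals. The filter at the 60th percentile tested fewer genes and removed Rps25, Rps27 and Rpl39 from the family. Calls of genes that it kept were lost as well. These include Rpl7 in unbound sleep deprivation against sleep and Rpl19 in the interaction of sleep deprivation and waking. The cause of these changes with the setting was not tested. The share of all genes called moved with the setting as well. Between the fractions it was 82.4% under quantile normalization over all arrays and 85.4% with centring. For the interaction of waking and sleep it was 4.19% under quantile normalization, 4.25% with centring and 7.44% with the mean of probe sets. For unbound sleep deprivation against waking it was 4.17%, 4.04% and 11.1%. Counts given without such a share cannot be read as results about the family. Leaving out 1 animal gave 39 to 41 members called between fractions (4 to 5 higher, 35 to 36 lower), 1 to 2, 2 to 3 and 0 in the bound state comparisons in the order above, 4 to 7, 0 to 1 and 9 to 18 in the unbound ones, and 1 to 2, 2 to 5 and 0 to 4 for the interactions. Sleep and waking samples share replicate numbers that name different animals (correlations -0.00095 to 0.087 in bound and -0.0050 to 0.10 in unbound RNA); with that replicate block 2 members were called in bound and 3 in unbound waking against sleep. Without the replicate block of the animal, 39 members were called between fractions (4 higher, 35 lower) and 2, 3 and 4 for the interactions.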

Other observations

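Genes that build ribosomes were called in both directions between the fractions. Of 43 tested ribosome biogenesis genes 17 were higher and 14 lower in bound RNA by limma at an adjusted p of 0.05 (median 0.01), against 25.5% higher and 58.1% lower of all genes. Ncl, the nucleolar protein nucleolin, was lower by -0.65 ± 0.04 (SE, n = 18 animals, adjusted p = 1.35e-12), and Ebna1bp2, a factor of large-subunit assembly, was higher by 0.77 ± 0.05 (adjusted p = 4.63e-12). Of 25 tested genes of mTOR and of TOP mRNA control 18 were lower and 3 higher (median -0.51). Among them Rheb, the small GTPase that activates mTOR, was lower by -1.04 ± 0.04 (adjusted p = 3.1e-15), and Ddit4, an inhibitor of mTOR signalling, was higher by 1.06 ± 0.05 (adjusted p = 1.33e-13). Deptor, also of this list, was lower by -1.34 ± 0.07 (limma adjusted p = 1.49e-13).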
